A study of Mus musculus with 8 samples.

Results

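The peaks described here are the autosomal Klf6 ChIP-seq peaks for which the deposited lists name no gene. A gene is named in these lists only where a RefSeq transcription start site (TSS) is close enough, and the distances that are listed ran from -49998 to 4996 bp, with negative values upstream of the TSS. On chromosomes 1 to 19, 24787 of 31973 peaks had an empty gene entry, and these unannotated peaks are the subject throughout. They numbered 8305 of 10781 autosomal peaks in OLP replicate A, 5533 of 7069 in OLP replicate B, 6892 of 8912 in iOL replicate A and 4057 of 5211 in iOL replicate B, so that their share lay between 77.0% and 78.3% in every list. Unannotated peaks on X and Y were left out (1402 in OLP A, 647 in OLP B, 1111 in iOL A and 478 in iOL B). All 4 lists together hold 36280 peaks.

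The cells were primary oligodendrocyte progenitors (OLP) from the cortex of C57BL/6 mice aged 6 to 7 days, selected by panning for the PDGF receptor alpha, and neither the labels nor the study's methods give an altered gene for these samples. The labels give 2 mitogens for the cultures of all samples, PDGF-AA at 10 ng/ml together with bFGF at 20 ng/ml. OLP were left untreated, and immature oligodendrocytes (iOL) were cultures of the same kind treated with thyroid hormone (T3, 40 ng/ml) for 18 h. Each stage has 2 biological replicates, A and B, immunoprecipitated with a rabbit polyclonal antibody to Klf6. Input chromatin entered only through the authors' peak calling, which set the peaks listed and their fold enrichment. A mock precipitation without antibody is not analysed here. Peaks do not measure expression, so the identity of the cells could not be checked against marker genes.

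Klf6 is a zinc-finger transcription factor of the Klf/Sp family, whose members bind GC-rich elements such as the CACCC box and the GC box. LINE-1 (L1) elements are mobile repeats that copy themselves through RNA. A complete mouse L1 has a promoter region, a first open reading frame for an RNA-binding protein (ORF1), a second for an endonuclease and reverse transcriptase (ORF2), and a tail, and most genomic copies lack their front part. 5S ribosomal RNA is a short RNA polymerase III transcript of the large ribosomal subunit, and sequences like its gene are scattered over the chromosomes.

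Sites were formed by joining peaks at most 500 bp apart, across lists. The 3 windows of 121 bases that follow, in mm9 and on the plus strand, surround the summits of unannotated sites with repeated sequence and among the highest fold enrichments over the 4 lists, and they show the kind of sequence that most reproducible sites share. Capitals mark the stretch of 32 bases in each window that has most exact copies on the autosomes, counted on both strands.
chr11:16231371-16231491: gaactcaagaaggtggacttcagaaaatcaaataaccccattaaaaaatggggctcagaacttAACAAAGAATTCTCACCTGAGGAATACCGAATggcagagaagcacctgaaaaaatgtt
chr12:95447330-95447450: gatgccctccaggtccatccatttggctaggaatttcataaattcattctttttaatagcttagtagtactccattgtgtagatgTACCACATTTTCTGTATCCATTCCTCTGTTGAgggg
chr12:70063160-70063280: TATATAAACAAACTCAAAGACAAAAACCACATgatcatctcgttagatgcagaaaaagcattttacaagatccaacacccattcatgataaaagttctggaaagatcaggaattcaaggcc

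The capital stretches occur 14582, 25723 and 13058 times on the autosomes, in the order shown. All 3 windows matched ORF2 of a mouse L1 copy, at 98.01% to 98.99% identity.

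The next sequences are the 4 genes for 5S-like ribosomal RNA (GENCODE type rRNA, names beginning with n-R5s) that lie under unannotated sites found in all 4 lists, in mm9 and on the strand of each gene. Capitals mark the core CCACCC, 1 of the 2 Klf-type cores searched for.
n-R5s194, chr3:4338998-4339116, plus strand: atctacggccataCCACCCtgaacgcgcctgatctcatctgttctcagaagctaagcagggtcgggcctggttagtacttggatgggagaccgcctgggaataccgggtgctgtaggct
n-R5s185, chr4:53873524-53873642, plus strand: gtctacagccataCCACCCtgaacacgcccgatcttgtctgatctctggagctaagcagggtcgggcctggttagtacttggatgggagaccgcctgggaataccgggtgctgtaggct
n-R5s88, chr9:102030218-102030335, plus strand: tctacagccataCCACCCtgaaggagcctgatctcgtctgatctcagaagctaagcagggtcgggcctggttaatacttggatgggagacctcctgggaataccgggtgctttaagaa
n-R5s46, chr14:37669115-37669230, minus strand: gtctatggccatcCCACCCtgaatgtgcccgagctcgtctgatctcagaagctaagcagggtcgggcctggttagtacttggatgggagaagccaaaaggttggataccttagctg

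The last sequence shows tandem sequence under a reproducible site on chromosome 6, with the repeated pentamer in capitals.
chr6:132413721-132413841: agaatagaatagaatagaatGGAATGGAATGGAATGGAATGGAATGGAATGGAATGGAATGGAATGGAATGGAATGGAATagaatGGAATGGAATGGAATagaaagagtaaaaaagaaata

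The first question was how many of the unannotated peaks recurred between samples. They formed 15474 sites, of which 10747 were in 1 list, 2139 in 2 lists, 1296 in 3 lists and 1292 in all 4 (8.35%). Of the OLP A peaks, 49.5% had no peak within 500 bp in another list and 16.8% had one in all 3 others. The corresponding values were 47.5% and 24.5% in OLP B, 44.3% and 20.0% in iOL A, and 25.7% and 33.3% in iOL B. The share with a peak in all other lists was thus highest in the shortest list and lowest in the longest. Peaks in all 4 lists are largely the same sites in each sample, so this order follows largely from list length. The values given below for such peaks are therefore not independent between samples. Sites in both OLP lists and no iOL list numbered 398, and sites in both iOL lists and no OLP list 262. Sites in both A lists alone numbered 766 and in both B lists alone 125. The number of unannotated peaks was 6919 ± 1960 (SD, n = 2) in OLP and 5474.5 ± 2005 (SD, n = 2) in iOL. The difference of 1444.5 peaks was smaller than the SD of either stage (exact permutation test, two-sided, p = 0.67, where 2 against 2 cannot go below 0.33). The A list was longer than the B list in both stages, which enters that SD. Within replicate letters, OLP had 1413 more peaks for A and 1476 more for B.

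**Figure D1:**
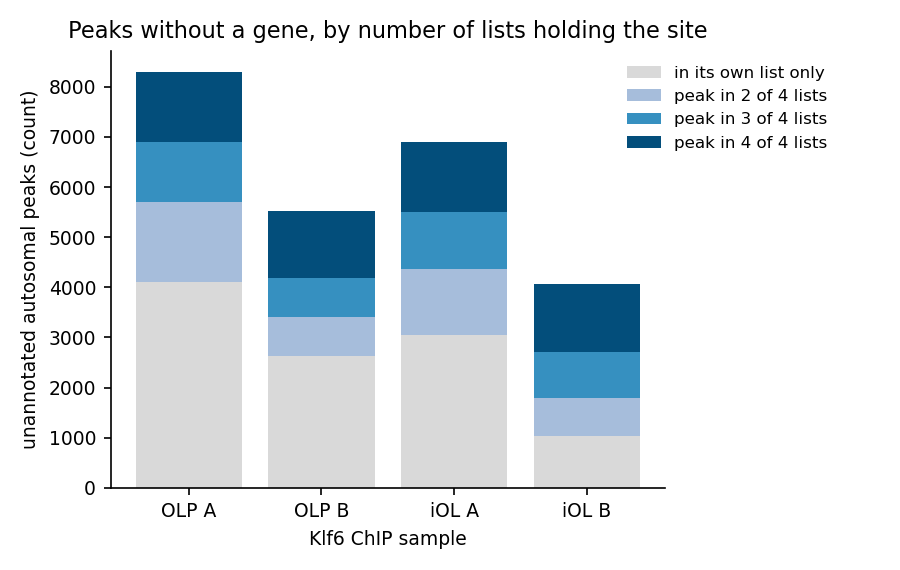
Number of autosomal peaks without a listed gene in each Klf6 ChIP sample (y axis, count), split by how many of the 4 lists have a peak within 500 bp. The number found in all 4 lists, from 1352 to 1397, is nearly equal by definition, since each such site has a peak in every list. The number found in 1 list runs from 1044 to 4112.

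Tags, the sequenced fragments counted under a peak, were few at most of these peaks. The A lists of both stages had a median of 8 tags, whereas the median was 12 for OLP B and 13 for iOL B. Fold enrichment, the authors' linear ratio of tags at the summit to the background expected by the peak caller, had a median of 14.6 in OLP A, 10.1 in OLP B, 14.9 in iOL A and 10.7 in iOL B. It was higher at sites that recurred. In OLP A the median went from 12.2 for peaks in their own list only to 24.3 for peaks in all 4 lists, in OLP B from 7.88 to 13.5, in iOL A from 12.4 to 22.3 and in iOL B from 8.46 to 13.7. A taller peak is also more easily found again, and the part of this in the increase was not tested.

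**Figure D2:**
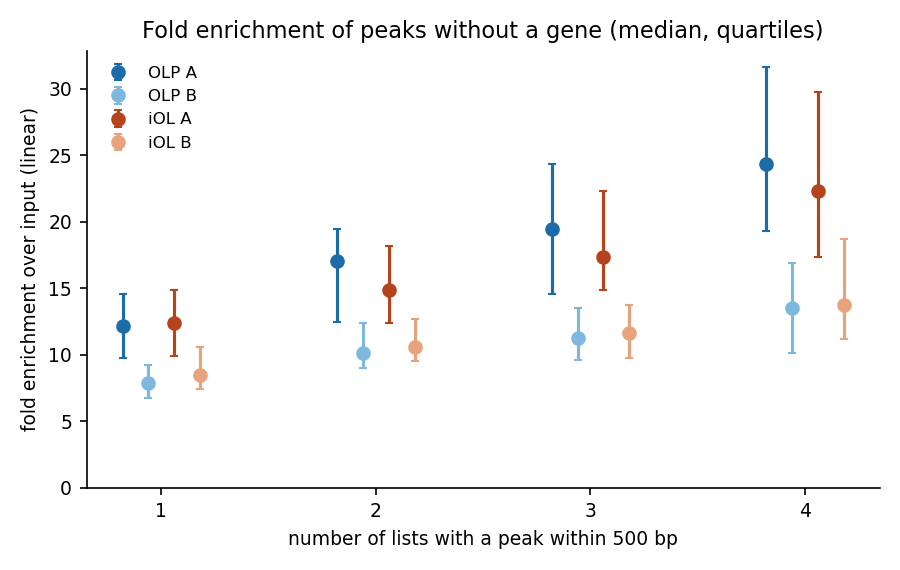
Fold enrichment of unannotated peaks (y axis, linear ratio over the caller's background) by the number of lists with a peak within 500 bp (x axis). Points are medians over peaks and bars run from the first to the third quartile; the median increases from 1 list to 4 lists in each of the 4 samples.

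Most unannotated peaks lay in sequence that occurs more than once in the genome. A peak was called repeated where more than 50% of its stretches of 32 bases have another copy on either strand. That held for 88.0% of unannotated peaks in OLP A, 73.7% in OLP B, 90.1% in iOL A and 90.1% in iOL B. Among peaks in their own list only, the share was 77.9%, 47.0%, 80.1% and 67.1% in the same order, and among peaks in all 4 lists it was 98.6%, 97.8%, 98.8% and 98.3%. The median number of copies of a stretch went from 61 to 2291 in OLP A and from 1 to 1006 in OLP B between these classes. How the aligner placed reads that match several copies is not given in the sources used here, so a peak in such sequence stands for a kind of sequence more surely than for the one position at which it is listed.

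The recurrent sites were largely copies of one element. Windows of 201 bases around the summits of all 1552 sites in 4 lists, unannotated or not, were compared with one another by BLAST, and 1446 of them (1219 unannotated) were joined into 1 group by matches of at least 100 bases. The next largest group held 28 sites. A region of 8002 bases with the shared element, chr3:111064870-111072871 on the minus strand, was taken as the reference copy. It holds open reading frames of 371 and 1281 codons, in the order and at about the sizes of ORF1 and ORF2 of mouse L1, and no repeat annotation was used to name it. Copies of it that aligned over at least 100 bases at 80% identity or more covered 8.65% of autosomal bases.

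Unannotated peaks held L1 sequence far more often than the autosomes as a whole. A match of at least 100 bases to the L1 reference copy was found in 71.8% of unannotated peaks in OLP A, 67.5% in OLP B, 73.7% in iOL A and 82.3% in iOL B, beside 8.69% of all 11908577 autosomal windows of the same 201 bases. The share grew with recurrence, from 54.1%, 39.9%, 53.6% and 53.5% of peaks in their own list only to 94.6%, 94.7%, 94.5% and 94.5% of peaks in all 4 lists. Peaks with a listed gene held L1 sequence in 52.1%, 50.3%, 53.8% and 61.2% of cases, below the unannotated peaks in 4 of 4 samples. This difference was not tested, since L1 was chosen after the sequences had been seen.

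**Figure D3:**
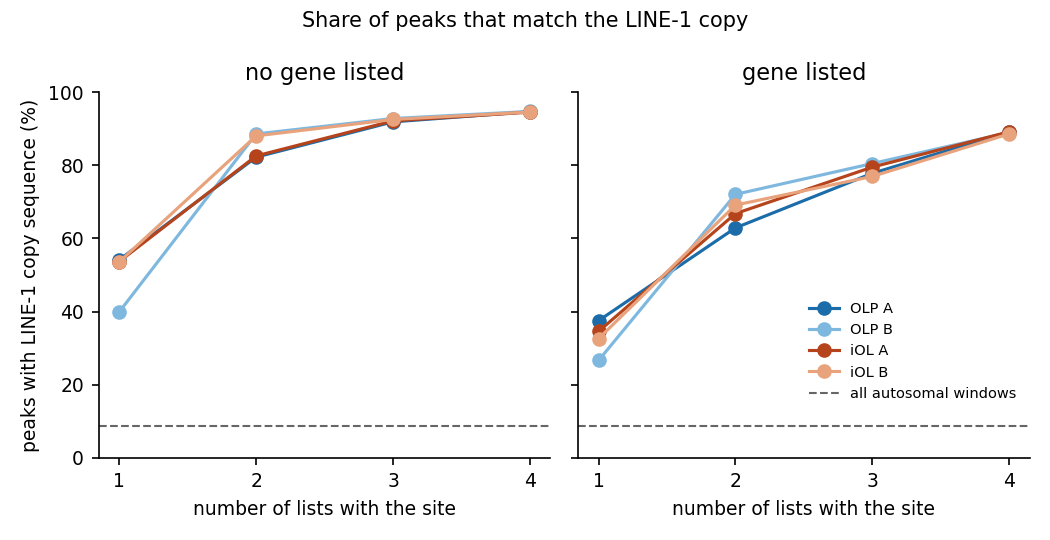
Percent of peaks whose 201-base summit window matches the L1 copy over at least 100 bases (y axis), by the number of lists with the site (x axis), for peaks without a listed gene on the left and with one on the right. The dashed line is the 8.69% of all autosomal windows; at 4 lists the unannotated peaks of all samples lie between 94.5% and 94.7%.

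The L1 copies under the peaks were close in sequence to the reference copy. That copy was chosen from the four-list sites by how many of their windows it matched, so this closeness is partly set by the choice. Median identity was 96.0% in OLP A, OLP B and iOL A and 96.3% in iOL B. Between 60.5% (OLP A) and 66.0% (iOL B) of L1 matches were at 95% identity or more, a level reached by 23.7% of the L1 bases aligned on the autosomes. Either orientation was about as common, with 50.8% to 53.2% of matches on the plus strand. Fold enrichment was higher at unannotated peaks with L1 sequence than at the others, with medians of 17.0 and 12 in OLP A, 11.3 and 7.61 in OLP B, 17.4 and 11.9 in iOL A, and 11.6 and 8.46 in iOL B.

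Summits were spread over both reading frames. ORF2 held 72.3% of the unannotated summits in L1 over the 4 lists, against 58.8% of aligned L1 bases, and ORF1 held 15.3% against 11.8%. The part after ORF2 held 10.95% of summits against 25.1% of aligned bases, and the 2000 bases before ORF1, where the promoter of a complete element lies, held 1.04% against 3.94%. In the separate lists the share in ORF2 was 72.8% (OLP A), 71.7% (OLP B), 73.5% (iOL A) and 70.3% (iOL B), and that before ORF1 0.906%, 0.857%, 0.984% and 1.56%. Hardly any copy aligned to the first 1000 of the bases before ORF1. Relative to the number of copies, summits were densest at bases 4751 to 5000 of the copy, in ORF2, with 38.6 peaks per 1000 aligned copies over the 4 lists. They were sparse from base 7501 to 7750, past ORF2, where 61604 copies carried 1.59 peaks per 1000 copies. The order of the parts was alike in OLP and iOL, and no stage difference along the element was tested.

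**Figure D4:**
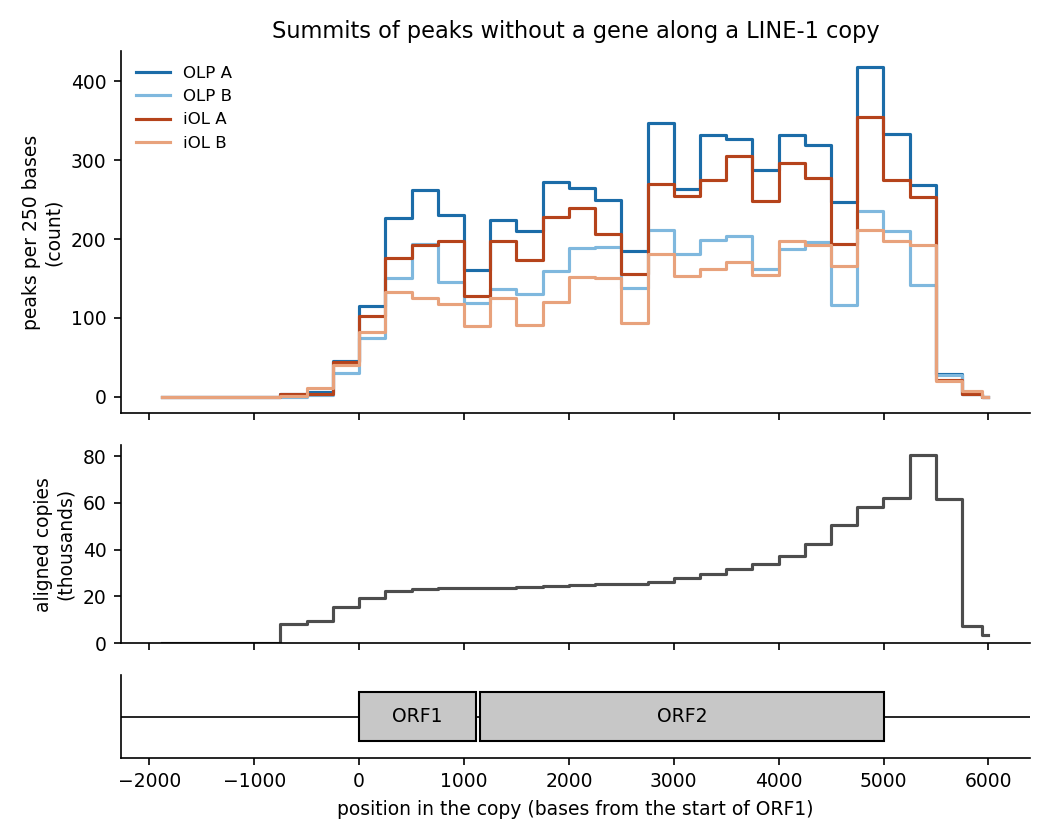
Summits of unannotated peaks along the L1 copy (x axis, bases from the start of ORF1): peaks per 250 bases in each sample (top, count), mean number of autosomal copies aligned to each bin (middle) and the reading frames (bottom). The 4 samples have the same outline, with most summits between the start of ORF1 and 500 bases past ORF2, while the number of aligned copies increases up to the same end.

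The density of unannotated peaks varied over chromosomes with their L1 content. It ran from 5.82 peaks per Mb on chromosome 11, where L1 covered 5.44% of bases, to 13.7 per Mb on chromosome 3, where L1 covered 11.2%. Over the 19 autosomes the 2 quantities had a Pearson r of 0.81 and a Spearman rho of 0.66, given as a description only, since L1 sequence lies under most of the peaks counted and all 4 lists enter each point.

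Sites among those with the highest fold enrichment in all lists show how strong single L1 sites were. The site chr11:16231383-16231481, in an intron of Vstm2a (a secreted immunoglobulin-domain protein), had 34 tags in OLP A, 40 in OLP B, 38 in iOL A and 44 in iOL B. Its fold enrichment was 82.7, 45.1, 79.8 and 26.3 in the same order. For chr12:95447250-95447528, between genes, fold enrichment was 63.2, 28.2, 81.9 and 31.5. For chr12:70062787-70063355 it was 59.4, 22.5, 66.99 and 38.1. At each of these sites the A list of a stage exceeded its B list, and the ranges of OLP and iOL overlapped. Over all 1292 four-list sites the geometric mean of the fold enrichment had a median of 18.1 and a range of 2.62 to 52.9.

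Away from L1, reproducible sites were few. Of the 1292 four-list sites, 1223 had their middle summit in L1 and 69 did not. Of those 69, 29 had low-complexity sequence over more than 50% of the window, and 23 were not repeated. The sites that follow were among those of highest fold enrichment of the 25 four-list sites in which at most 50% of the peaks were repeated. The highest was chr9:102030172-102030398, at the 5S gene n-R5s88 inside an intron of Ephb1 (an ephrin receptor), with 21, 28, 17 and 36 tags and fold enrichments of 48.6, 28.2, 39.7 and 37.0 in OLP A, OLP B, iOL A and iOL B. At chr4:53873473-53873719, over n-R5s185 and an exon of Tmem38b (an intracellular cation channel), fold enrichment was 38.9, 20.3, 17.2 and 18.1. Both are among the sequences shown above.

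Unannotated sites were counted over small RNA genes of each type. Of 307 autosomal rRNA genes in GENCODE, 5 lay under an unannotated site and 4 of these sites were in all 4 lists. Of 1331 snRNA genes 2 lay under such a site, of 1458 snoRNA genes 5, of 1468 miRNA genes 5 and of 458 miscellaneous RNA genes 0, with 0, 0, 2 and 0 of the sites in all 4 lists. At n-R5s194 fold enrichment was 28.9 in OLP A, 21.0 in OLP B, 19.6 in iOL A and 15.99 in iOL B. At n-R5s46 it was 34.0, 11.3, 27.3 and 15.9. The 4 genes shown contain CCACCC, and 148 of the 307 (48.2%) contain either core. The 5S genes were singled out after their values had been seen.

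Another 4 such sites were tandem or low-complexity sequence. The pentamer site chr6:132413634-132413906 had fold enrichments of 70.5, 33.8, 47.1 and 15.9. Those of chr10:100852978-100853124 were 41.3, 15.8, 64.5 and 22.2, those of chr10:41708225-41708448, in an intron of Armc2, were 36.5, 19.2, 44.7 and 21.1, and those of chr7:82369864-82370060, in an intron of the synaptic vesicle gene Sv2b, were 31.6, 15.8, 29.8 and 13.7. Low-complexity sequence covered 74.6% to 95.5% of the windows of these 4 sites. A further one, chr16:53027453-53027711, had fold enrichments of 34.0, 13.5, 32.3 and 20.1 and a median of 2035 copies per stretch in spite of its class.

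A small number of unannotated peaks held very many tags with little enrichment. Peaks with at least 100 tags numbered 36 in OLP A, 22 in OLP B, 35 in iOL A and 22 in iOL B, and carried 12.1% to 14.0% of all tags in unannotated peaks. Their median fold enrichment was 6.16, 3.04, 4.74 and 3.65, below the 14.6, 10.1, 14.9 and 10.7 of the other unannotated peaks. The tallest group, at chr2:98502302-98507576, had 15 such peaks over the 4 lists with 16459 tags, and fold enrichments of 1.48 to 6.23. Next was chr10:7229313-7237125 with 18 peaks and 7621 tags. L1 sequence was found in 1 of these high-tag peaks in OLP B and in none in the other lists.

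The Klf-type cores CCACCC and CCGCCC (both strands, within 100 bases of the summit) were less common in unannotated peaks than in the autosomes. At least 1 core was present in 4.64% of unannotated peaks in OLP A, 3.99% in OLP B, 4.93% in iOL A and 5.79% in iOL B. Of all autosomal windows of the same length, 12.5% had one (CCACCC in 10.96% and CCGCCC in 2.02%). Peaks with a listed gene had a core in 6.02%, 5.14%, 5.99% and 8.41%, and the difference, unannotated minus annotated, was -1.38, -1.15, -1.06 and -2.61 percentage points. The mean difference was -1.55 ± 0.722 points (SD, n = 4 samples; exact sign-flip permutation test, two-sided, p = 0.13, the smallest that 4 samples allow). Annotated peaks 15 to 50 kb upstream of a start, the most similar in position, had a core in 5.47%, 3.37%, 5.70% and 6.19%, which in OLP B is below the unannotated peaks, while annotated peaks within 2 kb of a start had one in 7.83%, 11.8%, 12.5% and 27.3%. Among peaks in all 4 lists the share was 4.20% to 4.44%, and among peaks in their own list only it was 4.74%, 3.46%, 5.20% and 7.47%, so that it was lower at recurrent peaks in 3 samples and higher in OLP B. Within L1 a core was present in 3.82% to 5.06% of unannotated peaks, and outside L1 in 6.70%, 3.56%, 7.34% and 9.21% in OLP A, OLP B, iOL A and iOL B. GC content of the windows averaged 38.5%, 36.6%, 38.9% and 39.3%, beside 41.9% for all autosomal windows. The search covered these exact strings only, and whether windows without them bind the factor was not tested.

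Unannotated peaks were next set beside peaks with a listed gene in the same lists. Their mean log2 fold enrichment was higher by 0.12, 0.11, 0.11 and 0.13 in OLP A, OLP B, iOL A and iOL B, a mean of 0.12 ± 0.01 (SD, n = 4 samples; exact sign-flip permutation test, p = 0.13). The share found in all 3 other lists was higher by 5.71, 6.86, 6.36 and 9.84 points, a mean of 7.20 ± 1.83 (same exact test, p = 0.13). The share with repeated sequence was higher by 3.19, 6.84, 3.68 and 10.1 points, a mean of 5.95 ± 3.19 (same exact test, p = 0.13). Annotated peaks 15 to 50 kb upstream of a start were close to the unannotated ones, with 87.8%, 72.1%, 89.0% and 84.6% repeated, and those within 2 kb of a start were far lower, with 69.6%, 24.5%, 65% and 31.2%. All 4 samples went the same way in each case, which gives the smallest p that this design allows and does not pass 0.05. Sites in all 4 lists enter every sample, so the 4 values of the second difference are not independent observations. Its n and p therefore overstate the replication. The other differences, that in cores included, share these sites in part. Without repeated peaks the first difference turned to -0.01 (exact p = 0.75) and the second to -0.27 points (exact p = 0.25), and without L1 peaks, an alternative chosen after seeing the data, the first was -0.01 (exact p = 0.5), the second 1.28 points (exact p = 0.13) and the third -6.87 points (exact p = 0.13).

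The stage comparison asked whether tags differed between iOL and OLP at the sites called in all samples. None of the 1292 unannotated four-list sites passed edgeR's quasi-likelihood test at an adjusted p of 0.05 (Benjamini-Hochberg over all 1552 four-list sites, smallest adjusted p = 0.861), and over all sites 0 were called (0%). At an unadjusted p under 0.05, 55 of the 1292 stood out, 19 of them higher in iOL, beside 63 of 1552 (4.06%) for all sites. DESeq2 called 0, with 1 of 1552 at an unadjusted p under 0.05. The log2 ratio of iOL to OLP at unannotated sites had a median of 0.01, its 5th and 95th percentiles were -0.62 and 0.57, and 1280 of 1292 sites lay within 1 log2 unit. Correlations of log2 tags across the sites were no tighter within stages (0.71 in OLP, 0.77 in iOL) than between them (0.69 to 0.78). Only sites called in every list entered, so changes that remove a peak from a list are not covered. Without OLP replicate A, 2 sites passed, chr1:194491019-194492144 (26 tags in OLP A, 10 in OLP B, 51 in iOL A and 26 in iOL B, adjusted p = 0.00656) and chr3:22555659-22555925 (7, 40, 9 and 16 tags, adjusted p = 0.0282), and without iOL replicate B only the first did (edgeR adjusted p = 0.0332). Each of these fits leaves a stage with 1 sample, which is assumed to vary like the replicates of the other stage. At the first site OLP A had as many tags as iOL B, and at the second OLP A had the fewest of all samples.

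**Figure D5:**
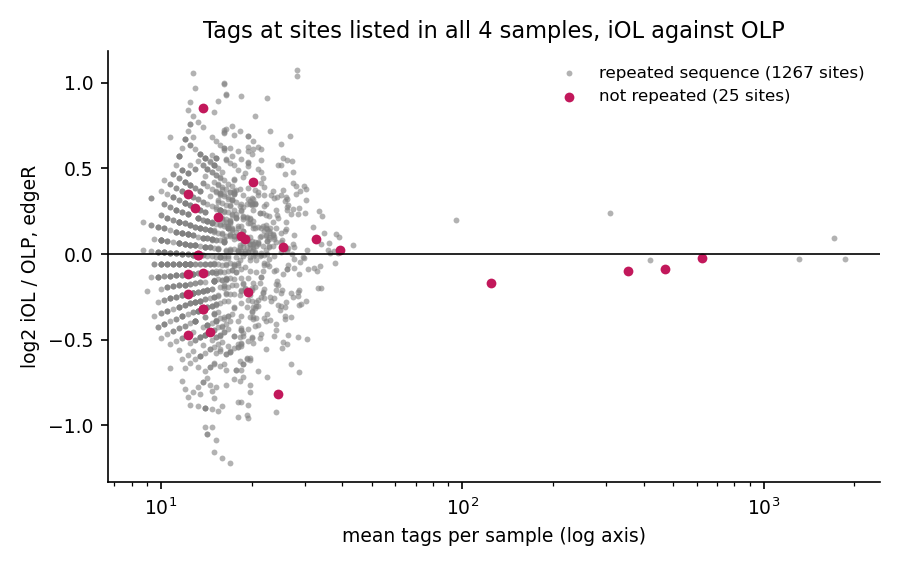
Log2 ratio of tags in iOL to tags in OLP from edgeR (y axis) against the mean tags per sample (x axis, log scale) at the 1292 unannotated sites called in all 4 samples. Grey points are sites with repeated sequence and red points the 25 others; the ratios run from -1.22 to 1.07 and none passed an adjusted p of 0.05.

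Sites found in the lists of 1 stage only are described by those of highest enrichment. The 3 sites in both OLP lists and no iOL list with the highest lower fold enrichment were chr19:51839330-51839482 (26.7 in OLP A and 23.8 in OLP B), chr3:18490269-18490442 (21.9 and 30.4) and chr13:50993330-50993511 (26.7 and 21.4). All 3 matched L1, at 96.48% to 99.01% identity. For iOL they were chr18:66310746-66311080, in an intron of Ccbe1 (19.9 in iOL A and 21.1 in iOL B), chr7:101991975-101992077 (19.9 and 19.03) and chr1:17951455-17951615 (19.9 and 18.0), of which the first and second matched L1. A list without the site says only that no peak was called, and tags below the caller's threshold may still be present.

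The position of the peaks relative to genes was read from GENCODE, an annotation the lists had not used. The distance to RefSeq starts was fixed by the choice of peaks, so it is not a result. The same choice leaves out the parts of genes up to 5 kb after such a start, which limits what exons and introns can hold. Introns of protein-coding genes held 20.5% of unannotated summits in OLP A, 21.7% in OLP B, 19.1% in iOL A and 18.3% in iOL B, beside 36.6% of autosomal bases. Exons of these genes held 0.349%, 0.542%, 0.363% and 0.197%, beside 3.09% of bases, and 76.1% to 79.99% lay between genes of any type, beside 58.0% of bases. Peaks with a listed gene had slightly lower shares between genes (73.4%, 68.6%, 73.0% and 74.9%) and slightly higher ones in introns (21.9%, 25.6%, 22.03% and 19.8%). Their share in exons was several times higher in every sample, at 1.33%, 2.21%, 1.19% and 1.91%. These comparisons were not tested. The label of having no gene nearby held only in part: in 20.0% to 23.0% of unannotated peaks a GENCODE transcript of some type had its start in the range over which genes are listed (peak at most 50 kb before or 5 kb after it), and in 6.80% to 8.34% a protein-coding transcript did. For peaks with a listed gene the protein-coding share was 90.7% to 91.5%.

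Few gene bodies held a reproducible unannotated site. Of 21418 protein-coding autosomal genes, 171 (0.798%) contained a four-list site and 1675 (7.82%) at least 1 unannotated peak. The choice of peaks leaves out those from 50 kb before to 5 kb after a RefSeq start. Short gene bodies could therefore hardly hold one, and counts per gene and per Mb depend on this exclusion. Pcdh15, a cadherin of the sensory hair bundle, had 4 such sites and 31 unannotated peaks over the 4 lists in a body of 1550 kb. Agbl4, a deglutamylase, had 3 sites and 43 peaks, all of the peaks in L1. Also with 3 sites each were Dlg2, a postsynaptic scaffold (28 peaks), Gucy1a2, a guanylate cyclase subunit (25 peaks), Itgbl1, an integrin-like secreted protein (22 peaks), the kainate receptor gene Grik2 (21 peaks), Vstm2a (21 peaks) and the orphan receptor gene Gpr158 (20 peaks). Skint6, of an immunoglobulin-domain family, had 2 sites and 34 peaks, and Lrrc4c, a netrin-G ligand, had 2 sites and 30 peaks. Per Mb of gene body the values ran from 14.4 peaks (Dlg2) to 124 (Vstm2a), beside 5.31 over all protein-coding bodies and 10.4 over the autosomes. These genes were chosen by their four-list sites and then their peaks, so high values follow in part from the choice. Outside L1 lay 10 peaks of Pcdh15, 6 of Skint6, 5 each of Dlg2 and Lrrc4c, 4 of Grik2, 2 of Gucy1a2 and 1 of Itgbl1. Vstm2a and Gpr158 had 0 outside L1.

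Genes of the oligodendrocyte lineage were looked up by lists. Of 19 transcription factor genes of the lineage, 0 contained a four-list site and 3 contained an unannotated peak (15.8%): Sox6 with 7 peaks over the 4 lists, Sox5 with 2 and Tcf4 with 2. Of 15 progenitor genes, Lhfpl3 alone contained a four-list site, and 5 contained a peak (33.3%), namely Erbb4 with 21, Fgfr2 with 9, Lhfpl3 with 6, and Pdgfra, the receptor for PDGF-AA, and Ptprz1 with 1 each. Of 24 genes of myelin and maturing oligodendrocytes, 0 contained a four-list site and 5 a peak (20.8%): Pde4b with 3, Sema6d and St18 with 2 each, and Bcas1 and Myo1d with 1 each. Of 29 genes of gp130, Stat3, Klf and importin function, 0 contained a four-list site and 2 a peak (6.90%), the thyroid hormone receptor gene Thrb with 3 and Klf12 with 2. These shares stand beside the 7.82% of all genes, but the lists differ in gene length, with medians of 9.58, 66.8, 34.8 and 31.9 kb against 15.5 kb for all genes. Per Mb of gene body the 4 lists held 5.02, 7.21, 3.35 and 2.84 unannotated peaks over the 4 samples, beside 5.31 for all genes. In this annotation the body of Fgfr2 spans 3009 kb, most of the 5.27 Mb of the progenitor list. The value per Mb of that list therefore leans on this 1 gene. Genes shorter than 5 kb, such as Olig1 and Olig2, could hardly hold a peak under the exclusion near RefSeq starts. The lack of a peak in them is not a result, and the shares and values per Mb have the same limit. All peaks of Thrb, Klf12, Pde4b and Myo1d lay in L1, where the listed position is unsure. Outside L1 lay 2 of the 21 peaks of Erbb4, 7 of 9 of Fgfr2, 5 of 6 of Lhfpl3, 4 of 7 of Sox6 and 1 of 2 of St18. The peaks of Sox5, Tcf4, Pdgfra, Ptprz1, Sema6d and Bcas1 were all outside L1.

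Among the lists, long neural adhesion and synapse genes had the highest share. Of 41 such genes, 10 (24.4%) contained a four-list site and 40 (97.6%) an unannotated peak, beside 0.798% and 7.82% of all genes. The list was made of long genes, which have more room for a peak. These shares are therefore not a result about the kind of gene. Per Mb, the bodies of the listed genes held 10.1 peaks, beside 5.31 for all gene bodies and 10.4 for the autosomes as a whole. Their median length was 1056 kb, beside 15.5 kb for all genes, so the 5 kb left out after a RefSeq start takes up little of such a body. Pcdh15, Dlg2, Grik2 and Lrrc4c, given above, had most four-list sites. Examples with fewer were Galntl6 with 1 site and 26 peaks and Cntnap2, a neurexin family member, with 1 site and 15 peaks, whereas Lrp1b, a lipoprotein receptor-related gene, had 31 peaks and Sgcz, a sarcoglycan, 24, both with 0 four-list sites. Outside L1 lay 6 of the 26 peaks of Galntl6, 4 of 15 of Cntnap2, 17 of 31 of Lrp1b and 8 of 24 of Sgcz. Dpp6 was the gene of the list with 0 peaks. Of 15 astrocyte genes, with a median length of 14.3 kb, 0 contained an unannotated peak. The exclusion near starts takes up a much larger part of such short bodies.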

How the data were processed

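Peaks of 4 Klf6 ChIP samples of mouse OLP and iOL (2 replicates per stage) were analysed. Per the labels and the study's methods, the authors kept reads of sufficient quality (CASAVA 1.8 is named), mapped these to mm9 with Bowtie2, called peaks of each sample against input with MACS and assigned RefSeq starts; samples were not pooled. The deposited tags are raw counts per peak, the deposited MACS score is 10 times -log10 of the p-value, the deposited fold enrichment is a linear ratio, and the false discovery rate is in percent. Read depth is not given in the sources used here: tags in autosomal peaks numbered 96300 to 126838 per sample, and a typical peak rests on 8 to 13 tags.

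Sites, copies of 32-base stretches, cores, GENCODE vM1 locations and L1 matches (BLAST+ 2.17.0, E value at most 1e-10) were computed in NCBIM37, the same build as mm9. Tags at sites called in all samples were tested with edgeR 4.0.16 (quasi-likelihood, TMM; DESeq2 1.42.0 as alternative), other contrasts with exact permutation tests over samples. P-values measure the spread between these samples. Scripts were tested on simulated data. Regions named were the 8 non-repeated and 4 repeated four-list sites of highest geometric mean fold enrichment, 3 sites per stage, sites past the stage test and the genes whose bodies hold most four-list sites; a few of these sites, and 1 gene list, are not reported here. Gene lists were matched by symbol, older symbols included. The members and lists were chosen with earlier results of these data known. Alternatives changed the minimum of tags, the score, the FDR, the gap, the window, the stretch length, normalization, and the samples.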

Additional observations from a re-analysis of the deposited data

How the results depend on the processing

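Of 57 alternatives over 6 results, 51 kept the direction and the side of the threshold. Leaving out repeated peaks turned the difference in log2 fold enrichment between unannotated and gene-annotated peaks from 0.12 to -0.01 (-0.0118) and that in the share found in all other samples from 7.20 to -0.272 points. Leaving out L1 peaks, chosen after seeing the data, turned the difference in log2 fold enrichment to -0.0107 and that in the share with repeated sequence to -6.87 points. The stage test of tags changed its number of called sites without OLP replicate A and without iOL replicate B. Each of these fits leaves a stage with 1 sample. At chr1:194491019-194492144 the log2 ratio of iOL to OLP was 2.03 without OLP replicate A and 1.67 without iOL replicate B. At chr3:22555659-22555925 it was -1.62 without OLP replicate A. The difference in unannotated peaks between stages was 27 without iOL replicate B and 58.5 without OLP replicate A. It was 2830.5 without OLP replicate B and 2862 peaks without iOL replicate A. The exact test of this difference could not reach the threshold in any of these settings.

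Neither the labels nor the methods say that a replicate letter marks a shared culture or day, and the A minus B deviations of log2 tags in OLP and in iOL had a correlation of 0.041 over the four-list sites. List length, median tags and median fold enrichment did differ between A and B in the same direction in both stages. With the replicate letter as a replicate block, 0 sites were called (74 at an unadjusted p under 0.05, beside 63 without the block), and the difference in unannotated peaks stayed 1444.5. Counts of 8 to 13 tags leave a large sampling error on each site, and 2 replicates per stage limit every comparison between stages. Intervals for single peaks were not computed, since the background counts behind the fold enrichments are not in the tables used here.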
